A study of Mus musculus with 18 samples.

Results

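The genes described here are 10 genes of the NRF2 antioxidant pathway, Nfe2l2, Keap1, Slc7a11, Gclc, Gclm, Txnrd1, Srxn1, Prdx1, Nqo1 and Hmox1, taken from the 50600 genes of the count table by their Ensembl identifiers. All 10 were found and all 10 passed the filter on low counts, among 15663 genes tested. RNA-seq was performed on bone marrow-derived macrophages (BMDMs) that were grown from mouse marrow with GM-CSF for 8 days. WT cells and cells of IRF5 KO (IRF5-/-) mice were each left unstimulated (WT unstimulated, IRF5 KO unstimulated), stimulated with 100 ng/ml LPS for 2 h after 1 h of vehicle (WT LPS DMSO, IRF5 KO LPS DMSO), or stimulated in the same way after 1 h of 3.5 µM defactinib (WT LPS defactinib, IRF5 KO LPS defactinib), with 3 libraries in each of the 6 groups. IRF5 is a transcription factor that drives inflammatory genes in macrophages, LPS is a bacterial lipid that activates TLR4, and defactinib is an inhibitor of the kinases FAK and PYK2. Whether unstimulated cells received vehicle was not settled, since their labels name DMSO while their columns are marked as untreated. There was no group with defactinib without LPS. The labels give neither the sex nor the age of the animals behind a library. The series calls its replicates biological, but the labels do not tie libraries to animals or cultures, so that p-values measure the spread between these libraries.

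NRF2, the protein product of Nfe2l2, is a transcription factor that is held in the cytoplasm by KEAP1, an adaptor that directs it to the proteasome. Oxidants and electrophiles modify cysteines of KEAP1, after which NRF2 accumulates, pairs with a small MAF protein and binds antioxidant response elements near its target genes. The pathway is known in macrophages for limiting oxidative damage and for holding back inflammatory gene expression. The targets fall into groups by role. Slc7a11 encodes the cystine importer xCT, and Gclc and Gclm encode the catalytic and modifier subunits of glutamate-cysteine ligase, which makes the precursor of glutathione. Txnrd1 encodes the cytosolic thioredoxin reductase, Prdx1 a peroxiredoxin that reduces peroxides, and Srxn1 the sulfiredoxin that repairs over-oxidised peroxiredoxins. Nqo1 encodes a quinone reductase and Hmox1 encodes heme oxygenase 1, which breaks down heme.

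Counted read pairs ranged from 39282181 to 61949143 per library, and each of the 10 genes had at least 907 counts in every library. Irf5, the targeted gene, reached 587 to 650 CPM (counts scaled to a common library size by TMM) in WT unstimulated. It was at 434 to 475 CPM after LPS with DMSO and 213 to 379 CPM after LPS with defactinib in WT, and at 335 to 435 CPM over the 9 IRF5 KO libraries. Before LPS the IRF5 KO libraries, at 335 to 397 CPM, lay below the WT ones. After LPS with DMSO the genotypes overlapped, at 345 to 435 CPM in IRF5 KO, and after LPS with defactinib the mean was 369 CPM in IRF5 KO against 276 CPM in WT. A gene-level count does not tell which exons were deleted, and this check does not separate the genotypes after LPS. IRF5 KO LPS DMSO replicate 3 stood apart from its group. A chi-square of the counts, where sampling noise alone gives 1 per gene, was 2.33 between replicates 1 and 2 of that group but 441 and 425 against replicate 3, while pairs within the other 5 groups were at 3.82 to 183. Whether its label and treatment were those of its group was not tested. Results that rest on that library are given with and without it. All 7 macrophage markers were present, summing to 9312 to 18838 CPM per library, with the highest sums in IRF5 KO LPS defactinib. The 6 dendritic cell markers were present as well, at 3675 to 6434 CPM. Neutrophil markers summed to 49.6 to 196 CPM, with Elane and Mpo below 1 CPM in every library, and mast cell and basophil markers to 7.89 to 15.5 CPM in WT and 42.7 to 72.4 CPM in IRF5 KO libraries, with Mcpt8, Fcer1a and Ms4a2 below 1 CPM. Erythroid, T and B cell and stromal markers summed to at most 2.67, 1.02 and 5.75 CPM. In bulk samples, fewer cells of a type and less RNA per cell cannot be told apart.

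Promoters are shown for 4 of the 5 genes that defactinib lowered in WT, with that of Prdx1, which was not called in any comparison. The window of Keap1, the other of the 5, held no match to the motifs searched and is not printed. RefSeq promoter windows of GRCm38.p6, from 250 bases before to 50 bases after a start site, were given for 8 of the 10 genes in 10 windows. They were searched on both strands for the antioxidant response element core TGACNNNGC, which occurred in 12.4% of 32851 such windows, for the AP-1 site TGACTCA, which occurred in 5.2%, and for the amino acid response element TGATGCAA, a site of ATF4-type factors, which occurred in 0.895%. The lines below hold the 220 bases from 250 to 31 bases before the start site, 5′ to 3′ in the sense of the gene, with matches in capitals.

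Nfe2l2 (chr2:75704694-75704913, minus strand): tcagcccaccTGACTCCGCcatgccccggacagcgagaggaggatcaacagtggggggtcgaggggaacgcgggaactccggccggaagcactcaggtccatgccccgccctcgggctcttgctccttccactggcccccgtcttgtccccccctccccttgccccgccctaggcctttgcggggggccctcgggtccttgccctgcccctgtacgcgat
Slc7a11 (chr3:50443644-50443863, minus strand): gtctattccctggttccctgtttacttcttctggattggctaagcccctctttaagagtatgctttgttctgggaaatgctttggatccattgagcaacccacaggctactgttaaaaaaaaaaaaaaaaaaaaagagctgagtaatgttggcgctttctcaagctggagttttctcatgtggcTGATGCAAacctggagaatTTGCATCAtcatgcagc
Srxn1 (chr2:152105274-152105493, plus strand): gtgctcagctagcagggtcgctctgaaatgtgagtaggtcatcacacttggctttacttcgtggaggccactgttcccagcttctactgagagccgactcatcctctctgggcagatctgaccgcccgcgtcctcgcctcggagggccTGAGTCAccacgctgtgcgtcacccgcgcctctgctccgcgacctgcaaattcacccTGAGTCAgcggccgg
Txnrd1 (chr10:82858956-82859175, plus strand): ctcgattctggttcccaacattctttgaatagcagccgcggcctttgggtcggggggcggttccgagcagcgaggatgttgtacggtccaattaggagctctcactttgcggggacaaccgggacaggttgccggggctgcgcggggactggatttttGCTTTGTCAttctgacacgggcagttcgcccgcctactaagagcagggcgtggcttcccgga
Prdx1 (chr4:116685349-116685568, plus strand): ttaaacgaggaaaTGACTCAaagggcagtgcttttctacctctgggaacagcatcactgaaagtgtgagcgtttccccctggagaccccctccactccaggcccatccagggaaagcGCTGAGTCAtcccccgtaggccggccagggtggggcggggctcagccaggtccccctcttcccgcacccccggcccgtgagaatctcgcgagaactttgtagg

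Slc7a11 held the amino acid response element on both strands, as TGATGCAA 66 bases and as TTGCATCA 47 bases before the start site. Srxn1 held the AP-1 site on the other strand 102 and 45 bases before its start site, and an antioxidant response element core as GCTAGGTCA 28 bases past it, outside the stretch printed. The antioxidant response element core was found in Nfe2l2 as TGACTCCGC 240 bases before the start site, in 1 of the 3 Txnrd1 windows as GCTTTGTCA at 92 bases, in Gclm as GCACCGTCA at 134 bases and in Prdx1 as GCTGAGTCA at 133 bases. In Prdx1 this match overlapped an AP-1 site, and another AP-1 site lay 237 bases before the start site. The windows of Nqo1 and Keap1 held none of these letters. A match describes the letters of the window only, and no binding was measured in these cells.

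Per exon length, Prdx1 was the most abundant of the 10 genes, with a mean of 2128 FPKM over the 18 libraries. Hmox1 followed at 219 FPKM, Srxn1 at 139, Txnrd1 at 133, Nfe2l2 at 94.9, Nqo1 at 77.4, Slc7a11 at 66.2 and Gclm at 51.3 FPKM. Gclc and Keap1 were the lowest, at 14.1 and 11.9 FPKM. They also differed in how far their levels moved between groups. The range of the 6 group means was 3.23 on the log2 CPM scale for Nfe2l2, 2.62 for Srxn1, 2.15 for Keap1, 2.03 for Slc7a11 and 1.92 for Txnrd1. It was 1.06 for Gclc, 0.90 for Prdx1, 0.90 for Nqo1, 0.77 for Gclm and 0.46 for Hmox1. Below, a gene is called higher or lower where edgeR gave a false discovery rate (FDR) under 0.05 and the levels differed more than 2-fold.

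**Figure D1:**
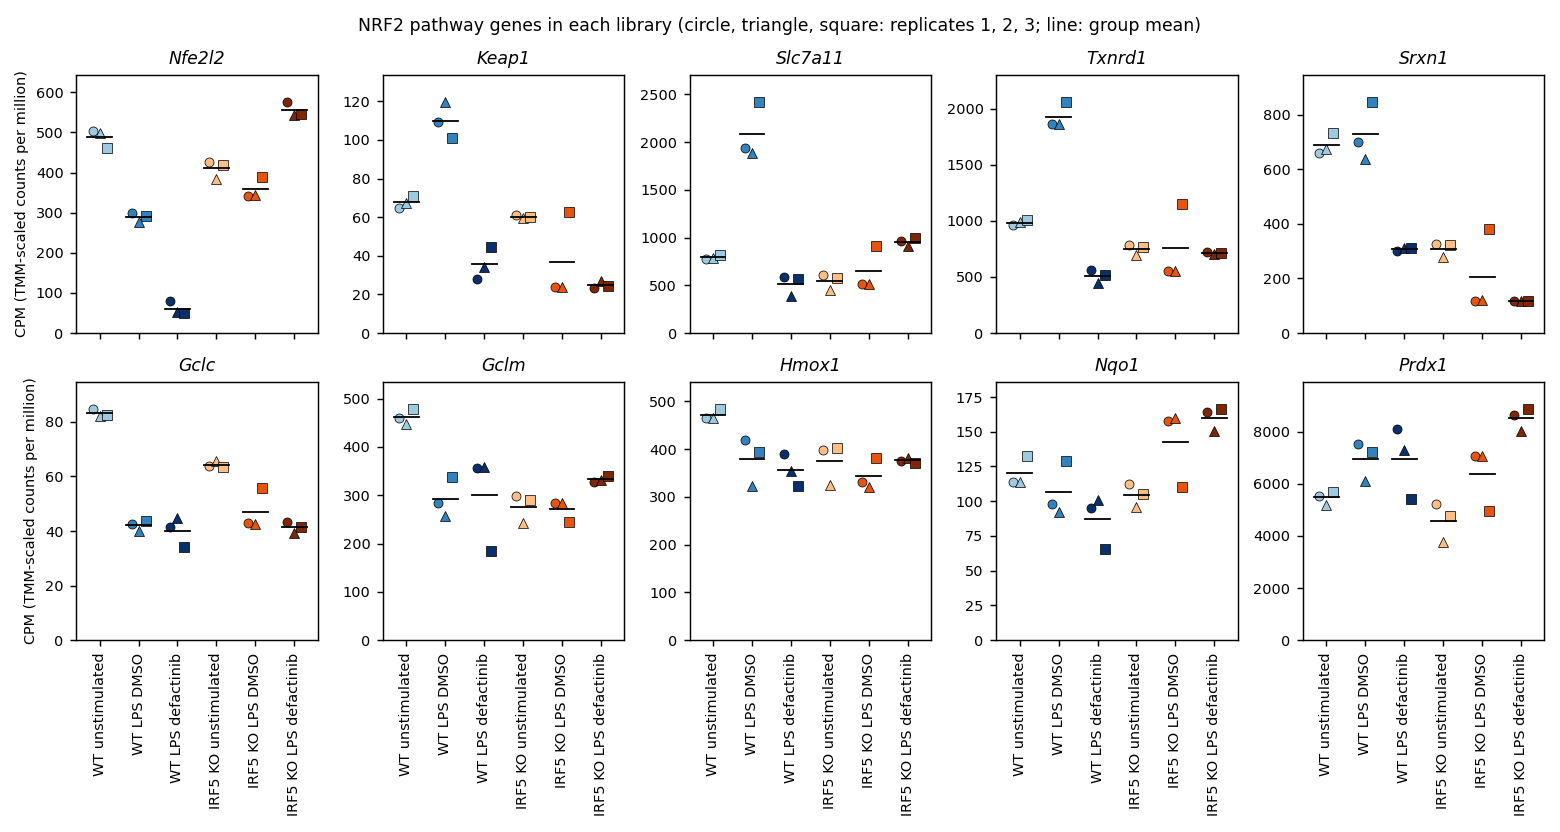
CPM of each of the 10 genes (y axes from 0, 1 panel per gene) in the 6 groups, with 1 symbol per library and a line at the group mean. WT LPS DMSO libraries stood highest for Slc7a11, Txnrd1 and Keap1, the defactinib libraries of WT lowest for Nfe2l2, and replicate 3 of IRF5 KO LPS DMSO (square) apart from the other two for Keap1, Slc7a11, Txnrd1 and Srxn1.

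The response to LPS in WT cells was asked first. LPS raised Slc7a11, the cystine importer, 2.63-fold, and none of the other 9 genes passed both thresholds. Gclc and Gclm, the genes of glutathione synthesis, were at lower levels in all 3 LPS libraries than in any unstimulated one, by less than 2-fold. Slc7a11 stood at 773, 782 and 822 CPM in WT unstimulated and at 1935, 1889 and 2417 CPM in WT LPS DMSO. All stimulated libraries lay above all unstimulated ones, and the log2 fold change was 1.39 (SE 0.21, n = 3, adjusted p = 6.4e-05 from edgeR). The count of 1 gene called higher of 10 compares with 11.6% of all tested genes called higher and 21.3% called in either direction. The dendritic cell markers summed to 5168 to 5314 CPM before and 5453 to 6434 CPM after LPS, with Ccr7 at a mean of 36.0 and 311 CPM, and the neutrophil markers to 49.6 to 68.1 and 102 to 196 CPM, while the macrophage sums overlapped. Their part in these results was not tested.

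Txnrd1 was just short of the fold threshold. Its level was 961, 986 and 1008 CPM in unstimulated and 1859, 1859 and 2057 CPM in LPS-stimulated WT cells, which did not overlap. The log2 fold change was 0.97 (SE 0.21, adjusted p = 0.00125), and 1.01 with DESeq2's size factors, where it was called. Srxn1 did not follow: it was at 659, 673 and 733 CPM before and 699, 639 and 846 CPM after LPS, with overlapping libraries and a log2 fold change of 0.08 (SE 0.31, adjusted p = 0.866). Among the peroxide-handling genes Prdx1 was at 5537, 5206 and 5697 CPM before and 7516, 6107 and 7225 CPM after LPS, a log2 fold change of 0.34 (SE 0.16, adjusted p = 0.103).

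Of the regulators, Nfe2l2 was at 505, 498 and 461 CPM before LPS. After LPS it was at 298, 277 and 293 CPM, below every unstimulated library, with a log2 fold change of −0.75 (SE 0.14, adjusted p = 0.000319) that was under the 2-fold threshold. Keap1 was at 64.5, 67.2 and 71.1 CPM before and 109, 120 and 101 CPM after LPS. Here too the groups did not overlap, and the log2 fold change of 0.70 (SE 0.27, adjusted p = 0.0518) had the opposite sign and missed the FDR threshold.

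Gclc stood at 84.6, 82.3 and 82.7 CPM before LPS and at 42.7, 39.9 and 43.7 CPM after it. That is close to the fold threshold, at −0.98 on the log2 scale (SE 0.11, adjusted p = 4.23e-06), and without WT LPS DMSO replicate 3 it was called at −1.01. Gclm was at 460, 447 and 478 CPM before and 284, 257 and 337 CPM after LPS, with a log2 fold change of −0.66 (SE 0.18, adjusted p = 0.00911). Hmox1, at 464, 465 and 483 CPM before and 418, 323 and 394 CPM after LPS, differed by −0.31 on the log2 scale (SE 0.11, adjusted p = 0.032). For Nqo1 the libraries overlapped, at 114, 114 and 132 CPM before and 98.0, 92.1 and 129 CPM after LPS. At an FDR under 0.05 with no fold threshold, 6 of the 10 genes passed, beside 41.8% of all tested genes. The libraries did not overlap between the groups for 8 of the 10 genes, beside 64.6% of all tested genes. Scaled by library size alone, with no TMM factors, the median of all genes moved to −0.38 in this comparison and 4 of the 10 genes were called, beside 26.4% of all tested genes at that scaling.

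Defactinib in LPS-stimulated WT cells was compared next, to ask what the inhibitor does to the pathway. It lowered 5 of the 10 genes and raised none: Nfe2l2 4.78-fold, Slc7a11 4.05-fold, Txnrd1 3.76-fold, Keap1 3.08-fold and Srxn1 2.36-fold. The sensor, the transcription factor gene, the cystine importer and the genes of thioredoxin reductase and sulfiredoxin were thus lower together, while Gclc, Gclm, Hmox1, Nqo1 and Prdx1 were not called. Among all tested genes 18.6% were called lower and 29.1% in either direction, beside 5 of these 10. The median log2 fold change was −0.76 over the 10 genes and 0.09 over all tested genes. Cell type markers moved in this comparison as well. The macrophage markers summed to 9312 to 9827 CPM with DMSO and 10629 to 15130 CPM with defactinib, and the dendritic cell markers to 5453 to 6434 and 4515 to 5338 CPM, without overlap in either list. Within the macrophage list Mertk went the other way, from 124 to 182 CPM with DMSO to 37.2 to 65.2 CPM with defactinib. Of the dendritic cell list, Ccr7 was at 298, 368 and 266 CPM with DMSO and 13.3, 8.78 and 47.6 CPM with defactinib, Zbtb46 had a mean of 91.3 against 25.2 CPM, Dpp4 one of 11.3 against 30.3 CPM, and Itgax, Flt3 and H2-Ab1 overlapped. The part of these markers in the results on the 10 genes was not tested.

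Nfe2l2 was at 79.6, 51.5 and 50.3 CPM with defactinib, against 277 to 298 CPM with DMSO. Each library with defactinib lay far below each library with DMSO, and the log2 fold change of −2.26 (SE 0.14, n = 3, adjusted p = 1.02e-08 from edgeR) was the largest of the 10. Keap1 was at 28.0, 34.2 and 44.8 CPM, all below the 101 to 120 CPM of the DMSO libraries. Its log2 fold change was −1.62 (SE 0.28, adjusted p = 0.000194).

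Slc7a11 was at 589, 383 and 569 CPM with defactinib. These libraries lay below the DMSO libraries and also below the unstimulated ones, with a log2 fold change against DMSO of −2.02 (SE 0.21, adjusted p = 1.86e-06). Txnrd1 was at 566, 448 and 521 CPM with defactinib. It showed the same order, below DMSO and below unstimulated cells, and a log2 fold change of −1.91 (SE 0.21, adjusted p = 2.75e-06). Srxn1 was at 300.1, 312 and 312 CPM with defactinib, and the groups did not overlap. Although LPS had left this gene near its unstimulated level, the log2 fold change with defactinib was −1.24 (SE 0.32, adjusted p = 0.00383).

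The remaining 5 genes had overlapping libraries. Gclc was at 41.5, 44.8 and 34.0 CPM with defactinib, a log2 fold change of −0.07 (SE 0.11, adjusted p = 0.602) from the DMSO libraries. Hmox1 was at 389, 354 and 322 CPM (log2 fold change −0.09, SE 0.11, adjusted p = 0.493). Nqo1 was at 95.5, 101 and 65.7 CPM (−0.29, SE 0.17, adjusted p = 0.161). For Gclm and Prdx1 replicate 3 lay apart from the other two: Gclm was at 356, 359 and 185 CPM and Prdx1 at 8109, 7310 and 5416 CPM. With all libraries their log2 fold changes were 0.04 (SE 0.18) and −0.00097 (SE 0.16), and without replicate 3 they were 0.31 (adjusted p = 0.0289) and 0.17 (adjusted p = 0.357), still under 2-fold. In that replicate the macrophage marker Adgre1 was at 343 CPM against 132 and 150 CPM in the others, and the part of this difference in the result was not tested. The 5 calls were made under each alternative that was run and with each of the 18 libraries left out. Between these groups the libraries did not overlap for 5 of the 10 genes, beside 62.5% of all tested genes.

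**Figure D2:**
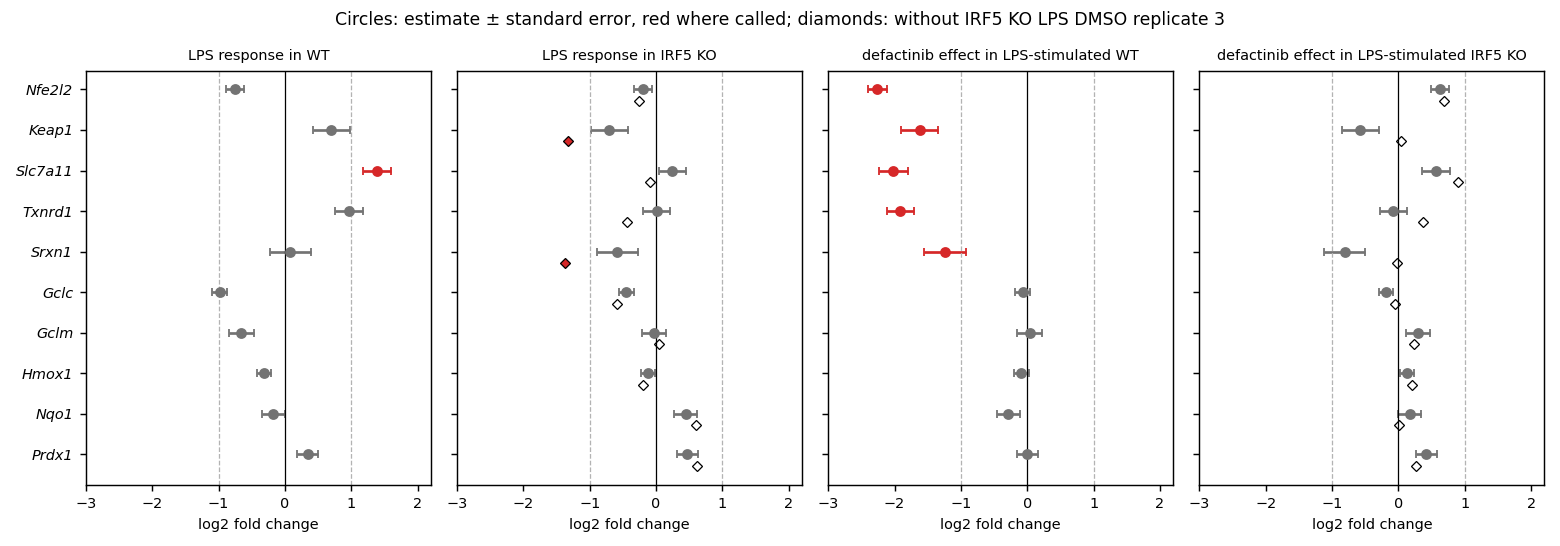
Log2 fold changes of the 10 genes (x axis; circles, edgeR estimate with its standard error, red where called) for LPS and for defactinib in WT and in IRF5 KO cells. Diamonds give the estimate without IRF5 KO LPS DMSO replicate 3, filled where called, and dashed lines mark the 2-fold threshold. In WT 5 circles lie past the lower threshold with defactinib and in IRF5 KO none does.

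In IRF5 KO cells the response to LPS depended on a single library for several of these genes. With all libraries edgeR called none of the 10 genes, beside 13.3% of all tested genes; 4 of the 10 had an unadjusted p under 0.05, beside 48.8% of all tested genes, and DESeq2 called none. Without IRF5 KO LPS DMSO replicate 3 it called Keap1 and Srxn1 lower, beside 16.6% of tested genes called lower and 26.2% called in either direction in that fit. Keap1 was at 61.1, 59.5 and 60.3 CPM before and 24.1, 24 and 62.6 CPM after LPS. The first 2 stimulated libraries were far below the unstimulated ones and the last was at their level, so that the log2 fold change was −0.71 (SE 0.28, adjusted p = 0.0549) with it and −1.33 (adjusted p = 5.02e-07) without it. Srxn1 was at 325, 279 and 324 CPM before and 119, 120 and 380 CPM after LPS. It followed the same order, with a log2 fold change of −0.58 (SE 0.31, adjusted p = 0.148) that became −1.37 (adjusted p = 9.67e-09).

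Slc7a11, the gene raised in WT, was at 610, 446 and 580 CPM before and 517, 510 and 910 CPM after LPS in IRF5 KO cells. Its log2 fold change was 0.24 (SE 0.21, adjusted p = 0.357), and −0.09 (adjusted p = 0.664) without replicate 3. Txnrd1 was at 784, 697 and 771 CPM before and 555, 553 and 1153 CPM after LPS. Here replicate 3 lay above and the others below the unstimulated libraries, with a log2 fold change of 0.01 (SE 0.20, adjusted p = 0.984) that became −0.44 (adjusted p = 0.000497). Nfe2l2 was at 427, 384 and 420 CPM before and 342, 344 and 388 CPM after LPS. The groups overlapped, at −0.20 on the log2 scale (SE 0.13, adjusted p = 0.258), and without replicate 3 they did not, at −0.26 (adjusted p = 0.122).

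The other genes stayed under 2-fold in IRF5 KO cells. Gclc was at 63.8, 65.7 and 63.4 CPM before and 42.9, 42.7 and 55.6 CPM after LPS (log2 fold change −0.45, SE 0.11, adjusted p = 0.0077), and at −0.59 (adjusted p = 5.28e-05) without replicate 3. With all libraries it was the 1 gene of the 10 whose groups did not overlap, beside 40.1% of all tested genes. Gclm was at 298, 242 and 290 CPM before and 285, 283 and 245 CPM after LPS, and Hmox1 at 397, 324 and 402 CPM before and 330, 321 and 381 CPM after LPS. Nqo1 was at 113, 96.1 and 105 CPM before and 158, 160 and 110 CPM after LPS, a log2 fold change of 0.45 (adjusted p = 0.0506). Without replicate 3 the groups of Nqo1 did not overlap and the value was 0.60 (adjusted p = 0.00321). Prdx1, at 5230, 3786 and 4764 CPM before and 7055, 7086 and 4973 CPM after LPS, was 0.47 higher on the log2 scale (adjusted p = 0.0326), and 0.62 higher (adjusted p = 0.00136) without replicate 3, under 2-fold both ways. Gclm and Hmox1 were at 0.04 and −0.20 without it (adjusted p = 0.891 and 0.128). In this comparison the dendritic cell markers summed to 3675 to 3919 CPM before and 4532 to 6270 CPM after LPS, and the neutrophil markers to 58.2 to 70.0 and 127 to 142 CPM. The macrophage sums overlapped, at 10208 to 14551 CPM before and 9536 to 12279 CPM after LPS. Within that list Adgre1 was at 291 to 320 and 365 to 671 CPM. Mertk went the other way, at 45.0 to 48.3 CPM before and 25.7 to 42.4 CPM after LPS. The part of these markers was not tested.

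Defactinib in LPS-stimulated IRF5 KO cells called none of the 10 genes in edgeR or in DESeq2, beside 0.919% of all tested genes in edgeR. An unadjusted p under 0.05 was found for 4 of the 10, beside 23.3% of all tested genes. Nfe2l2, which defactinib lowered in WT, was at 575, 544 and 546 CPM with defactinib here, above the 342 to 388 CPM of the DMSO libraries. Its log2 fold change was 0.63 (SE 0.14, adjusted p = 0.0269), under the fold threshold, and 0.69 (adjusted p = 0.0071) without IRF5 KO LPS DMSO replicate 3. Slc7a11 was at 961, 911 and 997 CPM with defactinib. These values lay just above the highest DMSO library, with a log2 fold change of 0.57 (SE 0.21, adjusted p = 0.118), and 0.90 (adjusted p = 0.00359) without that replicate.

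Keap1 and Srxn1 with defactinib were close to DMSO replicates 1 and 2. Keap1 was at 23.4, 26.7 and 24.1 CPM with defactinib, a log2 fold change of −0.58 (SE 0.28, adjusted p = 0.221) that became 0.04 (adjusted p = 0.892) without DMSO replicate 3. Srxn1 was at 116, 119 and 117 CPM, with −0.81 (SE 0.31, adjusted p = 0.139) that became −0.02 (adjusted p = 0.913). Conversely, leaving out DMSO replicate 1 or 2 instead gave a call of Srxn1 as lower, at −1.11 and −1.10. Txnrd1 was at 720, 707 and 718 CPM with defactinib (−0.08, SE 0.20, adjusted p = 0.857), and at 0.37 (adjusted p = 0.0203) without replicate 3. Prdx1 was at 8655, 8029 and 8867 CPM, Gclm at 328, 331 and 340 CPM, Gclc at 43.3, 39.4 and 41.5 CPM, Nqo1 at 164, 150 and 166 CPM and Hmox1 at 376, 382 and 371 CPM. Their log2 fold changes lay between −0.19 for Gclc and 0.42 for Prdx1, with adjusted p of 0.138 or more. Without DMSO replicate 3 they lay between −0.05 for Gclc and 0.27 for Prdx1, with adjusted p of 0.276 or more. The macrophage markers summed to 9536 to 12279 CPM with DMSO and 17912 to 18838 CPM with defactinib, and their part was not tested. The groups did not overlap for 5 of the 10 genes, beside 26.6% of all tested genes.

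Genotypes were compared within each treatment. Before LPS, WT cells had 2.23-fold more Srxn1 than IRF5 KO cells, and no other gene of the 10 was called, beside 7.31% of all tested genes. WT libraries were at 659 to 733 CPM and IRF5 KO libraries at 279 to 325 CPM, without overlap, and the log2 fold change was 1.15 (SE 0.32, adjusted p = 0.021). This call is close to the FDR threshold: it was lost without WT unstimulated replicate 2 or 3 or any 1 of the IRF5 KO unstimulated libraries, at log2 fold changes of 1.08 to 1.19 and adjusted p of 0.0514 to 0.0902. Gclm was at 447 to 478 CPM in WT and 242 to 298 CPM in IRF5 KO cells, a log2 difference of 0.74 (SE 0.19, adjusted p = 0.0118), and Gclc differed by 0.37 (SE 0.11, adjusted p = 0.0308), both below 2-fold. Cell type markers also differed before LPS, without overlap. The dendritic cell markers summed to 5168 to 5314 CPM in WT and 3675 to 3919 CPM in IRF5 KO, the macrophage markers to 9717 to 10049 and 10208 to 14551 CPM, and the mast cell and basophil markers to at most 11.2 CPM in WT and 47.1 to 55.3 CPM in IRF5 KO. Adgre1 had a mean of 73.3 against 302 CPM and Gata2, of the mast cell and basophil list, one of 3.27 against 32.3 CPM. Within the macrophage list Mertk went the other way, with a mean of 66.4 CPM in WT against 47.0 CPM in IRF5 KO. Cd68 and Lyz2 of that list overlapped. Of the dendritic cell list, Ccr7 and Dpp4 were higher in IRF5 KO, at means of 36.0 against 63.1 CPM and 6.65 against 29.3 CPM. The part of these markers in the genotype differences was not tested.

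After LPS with DMSO, 4 genes were called higher in WT and none was called lower. Srxn1 was 3.53-fold, Slc7a11 3.22-fold, Keap1 2.97-fold and Txnrd1 2.55-fold higher. The background was 14% of all tested genes called higher in WT and 25.8% in either direction. Every WT library lay above every IRF5 KO library for these 4 genes, replicate 3 of IRF5 KO included. The log2 fold changes were 1.82 for Srxn1 (SE 0.32, adjusted p = 0.000309), 1.69 for Slc7a11 (SE 0.21, adjusted p = 1.36e-05), 1.57 for Keap1 (SE 0.28, adjusted p = 0.000314) and 1.35 for Txnrd1 (SE 0.21, adjusted p = 8.15e-05). Without IRF5 KO LPS DMSO replicate 3 they were 2.61, 2.02, 2.19 and 1.80. Nfe2l2 had a log2 difference of −0.31 (SE 0.13, adjusted p = 0.0659), and −0.25 (adjusted p = 0.125) without that replicate. Nqo1 had one of −0.42 (SE 0.17, adjusted p = 0.0489) with overlapping libraries, and −0.58 (adjusted p = 0.00364) without overlap when the replicate was left out.

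After LPS with defactinib Nfe2l2 was 9.18-fold lower in WT than in IRF5 KO cells, at 50.3 to 79.6 against 544 to 575 CPM (log2 fold change −3.20, SE 0.15, adjusted p = 5.8e-10). Srxn1 remained 2.63-fold higher in WT, at 300.1 to 312 against 116 to 119 CPM (1.39, SE 0.32, adjusted p = 0.00306). These 2 calls among the 10 compare with 17.3% of all tested genes. Slc7a11 was at a lower level in WT, with a log2 difference of −0.90 (SE 0.21, adjusted p = 0.00312), and so was Nqo1, with −0.88 (SE 0.17, adjusted p = 0.000896), both under 2-fold. The macrophage markers summed to 10629 to 15130 CPM in WT LPS defactinib and 17912 to 18838 CPM in IRF5 KO LPS defactinib. Within that list Mertk went the other way, at means of 47.9 and 27.6 CPM. Mast cell and basophil markers summed to 7.89 to 11.2 CPM in WT and 43.1 to 48.0 CPM in IRF5 KO. The dendritic cell sums overlapped, with Ccr7 at means of 23.2 and 156 CPM, Zbtb46 at 25.2 and 70.7 CPM and Flt3 at 2.16 and 1.04 CPM. The part of these markers in the genotype differences with defactinib was not tested.

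**Figure D3:**
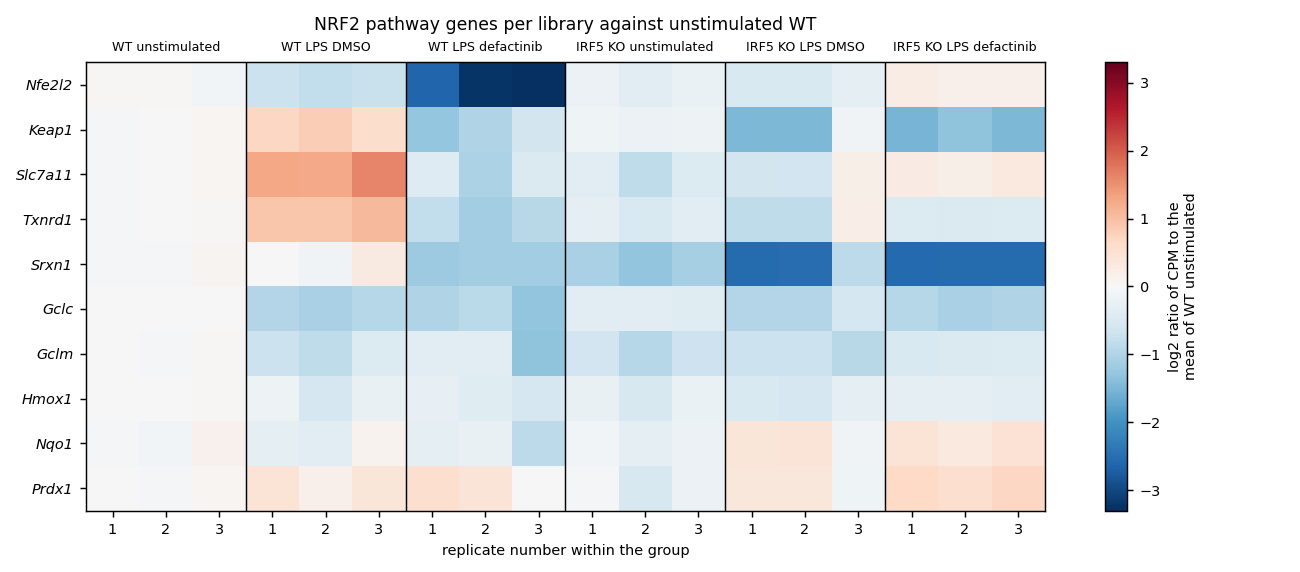
Log2 ratio of the CPM of each gene (rows) in each library (columns, by group and replicate number) to its mean in WT unstimulated, in red where higher and blue where lower. The 2 darkest blue blocks are Nfe2l2 in WT LPS defactinib and Srxn1 in IRF5 KO after LPS, where the third DMSO library differs from the other two.

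The difference between the genotypes in each response was tested by interaction terms. The LPS response differed for 2 of the 10 genes, beside 9.83% of all tested genes. Keap1 had an LPS response 1.41 higher on the log2 scale in WT (SE 0.39, adjusted p = 0.0225) and Slc7a11 one 1.15 higher (SE 0.29, adjusted p = 0.0152). Txnrd1 was close, at 0.96 (adjusted p = 0.032). Without IRF5 KO LPS DMSO replicate 3, 4 genes were called, beside 23.6% of tested genes in that fit: Keap1 at 2.03, Slc7a11 at 1.48, Srxn1 at 1.45 and Txnrd1 at 1.41. The call of Keap1 was lost without WT unstimulated replicate 1 or 2, WT LPS DMSO replicate 2, or replicate 1 or 2 of IRF5 KO LPS DMSO, with adjusted p of 0.0517 to 0.0575. That of Slc7a11 was lost, at 0.99 and 0.98, when replicate 1 or 2 of IRF5 KO LPS DMSO was dropped, and that of Txnrd1 was gained, at 1.01, without IRF5 KO unstimulated replicate 2.

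The defactinib effect differed between the genotypes for 4 of the 10 genes, each lower in WT, beside 12.3% of all tested genes called lower and 22.8% in either direction. The log2 difference was −2.89 for Nfe2l2 (SE 0.19, adjusted p = 4.04e-08), −2.58 for Slc7a11 (SE 0.30, adjusted p = 8.54e-06) and −1.84 for Txnrd1 (SE 0.29, adjusted p = 0.000166). Keap1 was at the threshold, with −1.05 (SE 0.39, adjusted p = 0.0462). With 1 library left out in turn, its call was kept in only 2 of 18 fits, the ones that drop replicate 3 of IRF5 KO LPS DMSO or replicate 3 of WT LPS defactinib, and its adjusted p reached 0.123. Without IRF5 KO LPS DMSO replicate 3, Srxn1 was called as well, at −1.22 (adjusted p = 1.06e-06), and Keap1 stood at −1.67. The calls of Nfe2l2, Slc7a11 and Txnrd1 were made with each library left out.

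Cells given LPS with defactinib were also compared with unstimulated cells, to show where the pathway stood against its starting level. In WT cells 3 of the 10 genes were called lower, Nfe2l2 8.06-fold, Srxn1 2.23-fold and Gclc 2.07-fold, beside 15.8% of all tested genes called lower and 24.9% in either direction. The log2 fold changes were −3.01 for Nfe2l2 (SE 0.15, adjusted p = 2.8e-09), −1.16 for Srxn1 (SE 0.32, adjusted p = 0.00684) and −1.05 for Gclc (SE 0.11, adjusted p = 4.2e-06). Another 6 genes were at lower levels in WT by less than 2-fold, with an FDR under 0.05 and without overlap: Txnrd1 at −0.94 (adjusted p = 0.0015), Keap1 at −0.92 (adjusted p = 0.0115), Slc7a11 at −0.63 (adjusted p = 0.0191), Gclm at −0.62 (adjusted p = 0.0108), Nqo1 at −0.46 (adjusted p = 0.0334) and Hmox1 at −0.41 (adjusted p = 0.00669). At an FDR under 0.05 with no fold threshold that makes 9 of the 10 genes, beside 53.2% of all tested genes, and Prdx1 was at 0.34 (adjusted p = 0.0856). Without WT LPS defactinib replicate 3, Gclc was at −0.93 and not called, while Keap1 was called at −1.10. In IRF5 KO cells Keap1 and Srxn1 were called lower, 2.43-fold and 2.64-fold, with log2 fold changes of −1.28 (SE 0.28, adjusted p = 0.00152) and −1.40 (SE 0.32, adjusted p = 0.0021). These 2 of 10 compare with 16.2% of all tested genes called lower and 24% in either direction. Srxn1 was thus called in both genotypes. Nfe2l2 was called lower in WT, and in IRF5 KO its log2 fold change was 0.44 (SE 0.13, adjusted p = 0.0131). Prdx1 in IRF5 KO had a log2 fold change of 0.89 (SE 0.16, adjusted p = 0.000472) and Slc7a11 one of 0.81 (SE 0.21, adjusted p = 0.00414), Nqo1 was at 0.61 (adjusted p = 0.00712) and Gclc at −0.64 (adjusted p = 0.000354), each under 2-fold. With no fold threshold 7 of the 10 genes passed in IRF5 KO, beside 53.4% of all tested genes. The macrophage markers summed to 9717 to 10049 CPM unstimulated and 10629 to 15130 CPM with LPS and defactinib in WT, and to 10208 to 14551 and 17912 to 18838 CPM in IRF5 KO. The neutrophil markers went from 49.6 to 68.1 CPM to 107 to 138 CPM in WT and from 58.2 to 70.0 CPM to 130 to 154 CPM in IRF5 KO, and the dendritic cell markers in IRF5 KO from 3675 to 3919 CPM to 5130 to 5589 CPM. The part of these markers was not tested.

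The order of the 6 group means sets the genes apart from each other. For Slc7a11 it ran from WT LPS DMSO at 2080 CPM through IRF5 KO LPS defactinib at 956, WT unstimulated at 792, IRF5 KO LPS DMSO at 646 and IRF5 KO unstimulated at 545 to WT LPS defactinib at 514 CPM, and the last 4 neighbours overlapped. Txnrd1 also had WT LPS DMSO highest, at 1925 CPM, and WT LPS defactinib lowest, at 512 CPM, with no overlap to the next group at either end. Keap1 was highest in WT LPS DMSO, at 110 CPM, and lowest in IRF5 KO LPS defactinib, at 24.8 CPM. Srxn1 ran from 728 CPM in WT LPS DMSO and 688 CPM in WT unstimulated, which overlapped, to 117 CPM in IRF5 KO LPS defactinib. Nfe2l2 had another order, highest in IRF5 KO LPS defactinib at 555 CPM and lowest in WT LPS defactinib at 60.5 CPM, and only the IRF5 KO unstimulated and IRF5 KO LPS DMSO groups overlapped among neighbours. For Hmox1, WT unstimulated stood above the rest at 471 CPM and the other 5 groups, at 344 to 379 CPM, overlapped with their neighbours.

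Likeness of pattern was measured by Pearson's r of log2 CPM over the 18 libraries, which share their groups, so that it is a description. Among all tested genes outside the 10, those most like Nfe2l2 were Trmt10c (r = 0.985), Kmt5b (r = 0.979) and Brix1 (r = 0.973). For Srxn1 they were Ccnyl1 (r = 0.985), Tmem65 (r = 0.984) and AI504432 (r = 0.983), and those given for Keap1 are Ptcd1 (r = 0.991) and Cptp (r = 0.986). Within the 10 genes, r was 0.907 between Srxn1 and Keap1, and 0.0951 between Nfe2l2 and Keap1.

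A further 62 genes of the pathway were listed by role, and all 62 were tested. LPS in WT raised 4 of them and lowered 3, which is 11.3% of the list beside 21.3% of all tested genes. Defactinib after LPS in WT raised 1 and lowered 6, again 11.3% of the list, beside 29.1% of all tested genes, with a median log2 fold change over the 62 genes of 0.16. The NRF2 partners and repressors, 9 genes that include the small MAF genes, were the list with the most calls: 3 were raised by LPS (Mafk, Maff and Sqstm1) and 4 lowered by defactinib (Mafk, Maff, Sqstm1 and Nfe2l1), beside 11.6% of all tested genes raised by LPS and 18.6% lowered by defactinib. Mafk, a small MAF partner of NRF2, was at 33.7, 34.2 and 39.1 CPM in WT unstimulated, 130, 124 and 123 CPM in WT LPS DMSO and 26.1, 21.3 and 22 CPM in WT LPS defactinib. The DMSO libraries lay above all the others, with log2 fold changes of 1.81 for LPS (SE 0.11, adjusted p = 6.76e-09) and −2.44 for defactinib (SE 0.11, adjusted p = 3.61e-10). Sqstm1, which encodes the p62 adaptor that sequesters KEAP1, had the same order: 533, 534 and 555 CPM, then 1828, 2041 and 2052 CPM with LPS, then 449, 449 and 506 CPM with defactinib. Its log2 fold changes were 1.87 (SE 0.17, adjusted p = 4.31e-07) and −2.08 (SE 0.17, adjusted p = 1.45e-07). Maff had log2 fold changes of 1.07 for LPS (adjusted p = 2.31e-05) and −1.57 for defactinib (adjusted p = 5.36e-07) in WT.

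The lists of enzymes held few calls. Of 12 further glutathione genes, 0 were called for LPS and 0 for defactinib in WT, by edgeR. Slc3a2, the partner chain of the Slc7a11 transporter, came nearest among those named: it was at 390, 390 and 431 CPM in WT unstimulated, 723, 675 and 716 CPM in WT LPS DMSO and 329, 358 and 412 CPM in WT LPS defactinib. The WT LPS DMSO libraries lay above all the others, and those of the other two WT groups overlapped, with log2 fold changes of 0.80 (SE 0.12, adjusted p = 4.84e-05) and −0.94 (SE 0.12, adjusted p = 9.09e-06), under 2-fold. Gpx1, a glutathione peroxidase, had −0.04 for LPS and 0.45 for defactinib. Of 10 thioredoxin and peroxiredoxin genes LPS lowered Sesn2 (−1.18) and defactinib lowered Txnip (−1.49), which encodes a thioredoxin-binding protein, while the abundant Txn1 and Prdx5 had 0.61 and 0.61 for LPS and −0.02 and 0.15 for defactinib. None of 6 NADPH supply genes was called for either by edgeR, with Taldo1 at −0.05 and 0.29 and Pgd at −0.05 and −0.27.

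Of 8 heme and iron genes, defactinib lowered Slc40a1, the iron exporter ferroportin. It was at 39.7, 31.5 and 40.7 CPM in WT LPS DMSO and 10.8, 14.3 and 4.55 CPM in WT LPS defactinib, without overlap (log2 fold change −1.92, SE 0.38, adjusted p = 0.000545). The ferritin genes Fth1 and Ftl1 were not called, at 0.21 and 0.05 for LPS and 0.33 and 0.46 for defactinib. Of 9 drug and electrophile genes LPS lowered Osgin1, which encodes an oxidative stress-induced growth inhibitor, from 11.9, 11.8 and 15.3 CPM to 0.858, 1.2 and 1.65 CPM (−3.40, SE 0.59, adjusted p = 0.000271), and it was at 1.02, 1.68 and 1.21 CPM with defactinib. In the same list Aox1 was called lower with LPS (−1.81) and higher with defactinib (1.58) at levels of 0.326 CPM or less in every library, and Abcc1 and Cbr3 were not called. Of 8 superoxide and peroxide genes LPS raised Sod2, the mitochondrial superoxide dismutase (1.19, adjusted p = 0.000103), and Cybb, a subunit of the NADPH oxidase, had 0.94 (adjusted p = 0.0013), while Cyba had 0.10.

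**Figure D4:**
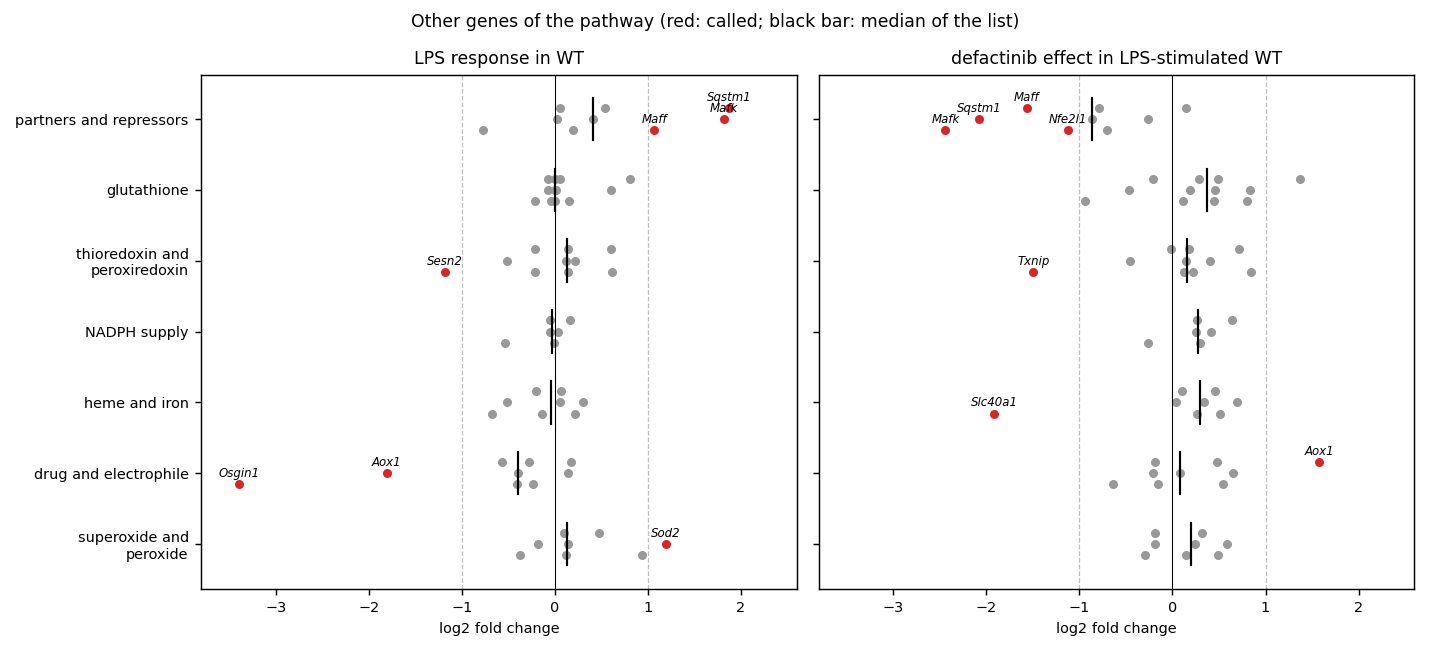
Log2 fold changes of the 62 further pathway genes (x axis) by list (y axis) for LPS and for defactinib in WT, with called genes in red and named and the median of each list as a black bar. In the partners and repressors 3 genes lie past the upper threshold with LPS and 4 past the lower threshold with defactinib.

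In IRF5 KO cells LPS raised Maff and Chac1 and lowered Osgin1 among the 62 genes, beside 13.3% of all tested genes called. Without IRF5 KO LPS DMSO replicate 3, Sesn2 was called higher and Nfe2l1 lower as well, which made 3 higher and 2 lower beside 26.2% of tested genes. Defactinib called 0 of the 62 in edgeR and in DESeq2, with 19 at an unadjusted p under 0.05, beside 0.919% called and 23.3% at that p over all tested genes. After LPS with DMSO, 5 of the 62 were higher in WT (Mafk, Nfe2l1, Sqstm1, Slc3a2 and Slc40a1) and 5 lower (Gstm1, Txnrd2, Sesn2, Osgin1 and Ncf4), beside 25.8% of all tested genes. Without that replicate Gsta4 was called lower, Osgin1 was not, and the other calls were kept. The share of all tested genes called in that fit is not given here. The defactinib effect differed between the genotypes for 6 of the 62, each lower in WT, beside 12.3% of all tested genes called lower and 22.8% in either direction: Mafk at −2.43, Sqstm1 at −2.15, Maff at −2.11, Txnip at −1.42, Slc3a2 at −1.17 and Cul3, a ubiquitin ligase scaffold that works with KEAP1, at −1.12. Without IRF5 KO LPS DMSO replicate 3, Nfe2l1 and Slc40a1 were called as well, and the share of all tested genes in that fit is not given here. Those of the 62 genes that are named because they were called, beyond the naming rule, were chosen after their values were seen.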

How the data were processed

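RNA-seq of 18 BMDM libraries in 6 groups of 3 was used, grouped by their labels. The deposited table holds raw counts per gene, without normalization. According to the study's methods and the table's header, the authors aligned reads to mm10 with STAR, allowing 2 mismatches, and counted uniquely mapped pairs over exons with reverse-stranded featureCounts 1.6.3. Counted pairs ranged from 39282181 to 61949143 per library. Multi-mapping reads are not in these counts.

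Counts were normalized by TMM and tested with edgeR 4.0.16 under R 4.3.3 (quasi-likelihood, two-sided) after filterByExpr, in 1 robust fit of all 18 libraries without a replicate block. Benjamini-Hochberg adjustment covered the 15663 tested genes. A call needed an FDR below 0.05 and an absolute log2 fold change over 1, the kind of threshold stated for DESeq2 in the study's methods. The SE is the log2 fold change divided by the square root of F. FPKM is CPM per kilobase of the exon length in the table. Scripts were tested on simulated data. The members, gene lists and comparisons were chosen with earlier results of these data known. Genes named are the 10 members, the 2 of each further list with the highest FPKM, the 3 listed genes with the largest called change for LPS and for defactinib in WT, and, for the 3 members with the widest range, the 3 genes with the highest r, of which 1 is not reported here. Alternatives were DESeq2 1.42.0, its size factors, library size alone, no filter, a replicate block, only the groups compared, no fold threshold, and each library left out.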

Additional observations from a re-analysis of the deposited data

Results flagged for a closer look

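The response of 2 genes to LPS and of 4 genes to defactinib differed between the genotypes by an interaction term. For LPS, the log2 difference between the WT and the IRF5 KO response was 1.41 for Keap1 (adjusted p = 0.0225 from edgeR) and 1.15 for Slc7a11 (adjusted p = 0.0152). Keap1 levels were higher after LPS in all 3 WT libraries and lower in replicates 1 and 2 of IRF5 KO. For defactinib after LPS, the log2 difference was −2.89 for Nfe2l2 (adjusted p = 4.04e-08), −2.58 for Slc7a11 (adjusted p = 8.54e-06), −1.84 for Txnrd1 (adjusted p = 0.000166) and −1.05 for Keap1 (adjusted p = 0.0462). Nfe2l2 levels were lower with defactinib in all 3 WT libraries and higher in all 3 IRF5 KO libraries. IRF5 KO LPS DMSO replicate 3 takes part in each of these differences. Without it the values were 2.03 and 1.48 for the LPS response of Keap1 and Slc7a11, and −2.95, −2.92, −2.28 and −1.67 for the defactinib effect of Nfe2l2, Slc7a11, Txnrd1 and Keap1. Over the 18 fits that leave out 1 library each, the LPS differences of Keap1 and Slc7a11 were called in 13 and 16, at 1.15 to 2.03 and 0.98 to 1.48, and the defactinib difference of Keap1 in 2, at −1.67 to −0.78. With library size alone neither LPS difference was called, at 1.22 for Keap1 (adjusted p = 0.0578) and 0.97 for Slc7a11 (adjusted p = 0.0445), nor was the defactinib difference of Keap1, at −0.68 (adjusted p = 0.215). Groups of 3 were not tested for single outlying libraries.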

How the results depend on the processing

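Over the 10 genes and 11 comparisons, 110 log2 fold changes were recomputed under 25 alternatives each. Of the 2750 values, 2668 kept their side of the thresholds, 37 lost a call and 45 gained one. No called value changed sign, and 53 uncalled ones did, of a size of 0.58 or less. The 5 calls for defactinib in WT and the 4 for WT against IRF5 KO after LPS with DMSO were made under each of the 25 alternatives. With no fold change threshold the counts, each with the share of all tested genes that passed, were 6 for LPS in WT (41.8%), 2 for LPS in IRF5 KO (37.5%), 1 for defactinib in IRF5 KO (3.36%), 9 and 7 for LPS with defactinib against unstimulated in WT and IRF5 KO (53.2% and 53.4%), 3 for WT against IRF5 KO before LPS (15.3%), 4 after LPS with defactinib (36.3%) and 4 for the genotype difference in the LPS response (17.1%). For WT against IRF5 KO after LPS with DMSO (52.2%), Nqo1 passed beside the 4 called genes. It was lower in WT, at −0.42 (adjusted p = 0.0489 from edgeR). With library size alone they were 4 for LPS in WT (26.4%), 5 for LPS with defactinib against unstimulated in WT (26.4%), 3 for the same in IRF5 KO (29.1%), 0 for WT against IRF5 KO before LPS (7.39%) and 0 for the genotype difference in the LPS response (9.32%). The genotype difference in the defactinib effect was called for 3 genes in place of 4 with library size alone, with no filter and with only the groups compared, where Keap1 lost its call at −0.68, −1.04 and −1.02 (adjusted p = 0.215, 0.116 and 0.132). The share of all tested genes was 26.4% with library size alone and 12.5% with no filter, and that with only the groups compared is not given here. With no filter, over 26458 genes, the counts were 2 for LPS in WT (12.6%), 0 for WT against IRF5 KO before LPS (4%) and 1 for the genotype difference in the LPS response (4.26%). For LPS in WT the count was 2 with DESeq2's size factors (21.1%) and 2 with DESeq2 (21%). Shares are not given for each fit with 1 library left out. With 1 library left out in turn, counts ranged from 1 to 2 for LPS in WT, 0 to 2 for LPS in IRF5 KO, 0 to 1 for defactinib in IRF5 KO, 0 to 1 for WT against IRF5 KO before LPS, 0 to 4 for the genotype difference in the LPS response and 3 to 5 for that in the defactinib effect. The cause was not tested.

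A check of the deviations from group means did not settle whether replicate numbers pair the libraries. Among 45 same-numbered pairs the median correlation was 0.029 (range −0.40 to 0.42), with 15 over 0.1, and among other-numbered pairs it was −0.0064. Of 18 libraries, 8 correlated best with their own number. With 3 libraries per group such values cannot exclude a shared animal or day. With the replicate block all 110 values kept their side of the thresholds, and the counts were 1 for LPS in WT and 5 for defactinib in WT.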
